A study of Mus musculus with 14 samples.

Results

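The enzymes described here turn arachidonic acid into prostaglandins, thromboxane, leukotrienes and hydroxy fatty acids, and their messenger RNA was measured in the blood cells of mice that had been stressed early in life and later conditioned with cocaine. The 10 genes are Pla2g4a, Ptgs1, Ptgs2, Tbxas1, Alox12, Alox5, Alox5ap, Lta4h, Ltc4s and Alox15. They were chosen by name, as every non-control probe whose RefSeq accession belongs to one of these symbols, which gave 11 of the 55681 probes on the array, with 2 probes for Alox12 and 1 for each other gene. Of these, 9 probes of 8 genes were well above background on all 14 arrays and were among the 24013 probes tested. Ptgs2 and Alox15 did not reach the minimum of 6 arrays.

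The SS mice had lived in a hostile social environment in the third postnatal week. They were 4 mice labelled male (mice 1, 2, 3 and 01b) and 4 labelled female (mice 20, 21, 22 and 23). The SI mice, 4 labelled male (mice 4, 5, 6 and 7) and 2 labelled female (mice 27 and 28), had been socially isolated; the sample labels place the isolation in the same week, while the design text calls it juvenile. All 14 mice were conditioned in a place preference test with cocaine at 5 mg/kg, an under-threshold dose, followed by extinction and withdrawal. Blood was drawn 24 hours after withdrawal. The set therefore holds no mouse without early stress and none without cocaine, and strain and age were not given in the sources used here. Each array carried the RNA of 1 mouse. The cells are labelled PBMC, peripheral blood mononuclear cells, and were prepared by lysing red cells, a step that in itself does not remove granulocytes or platelets.

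Eicosanoid synthesis starts when cytosolic phospholipase A2, encoded by Pla2g4a, frees arachidonic acid from membranes. Platelets carry Ptgs1 (cyclooxygenase 1) and Tbxas1 (thromboxane synthase), which make thromboxane A2, a platelet activator and vasoconstrictor, and Alox12, the platelet-type 12-lipoxygenase. Neutrophils, monocytes and mast cells carry Alox5, the 5-lipoxygenase, which with its membrane partner Alox5ap makes leukotriene A4. Lta4h turns leukotriene A4 into the neutrophil attractant leukotriene B4, and Ltc4s couples it to glutathione. Tbxas1, Ptgs1 and Alox5ap are also expressed in monocytes and macrophages, so the division into platelet and leukocyte enzymes is one of main sources only.

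The arrays were of 1 colour. The share of non-control spots called well above background was 34.8 to 47.7% per array, and no spot was saturated. The SS arrays had 1.00 percentage point more such spots than the SI arrays (exact permutation test within slides, two-sided, p = 0.474). All mice labelled male were on 1 slide and all labelled female on the other, so sex label, slide and scan cannot be told apart, and on each slide the SS and SI mice lay in different columns, so stress group and column cannot be told apart either. The sex labels went against the data: the Y-linked Ddx3y and Eif2s3y were well above background on 6 of 6 arrays labelled female and on 0 of 8 labelled male. Pairs of arrays of 1 group correlated at 0.927 to 0.989 over all tested probes, except among SI mice labelled male, where mouse 4 stood apart with 0.833 to 0.896 against the other 3. Markers of T cells, B cells, NK cells and monocytes were detected, as the PBMC label requires, and so were those of neutrophils, platelets and red cells. Signals below are log2 of the background-subtracted intensity scaled to each array's 75th percentile (scaled log2 signal), differences are SS minus SI on that scale, and signals of different probes are not set against each other.

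Pla2g4a, Ptgs1, Tbxas1 and Alox12 were higher in SS than in SI mice, at 2.54 (Ptgs1) to 2.99 (Alox12) times the SI level. No tested enzyme of the leukotriene branch passed the test over all mice. With no mouse without early stress, a rise in SS and a fall in SI cannot be told apart. Of the 8 enzymes tested, 4 were called higher and 0 lower (limma with slide as a term, adjusted p under 0.05), where 7.97% of all tested probes were called, 7.4% higher and 0.571% lower. Within slides, the same 4 were higher on every SS array than on every SI array both for mice labelled male and for mice labelled female, which 5.11% of all tested probes did. In RNA of mixed blood cells, fewer cells of a type and less RNA per cell cannot be told apart.

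**Figure D1:**
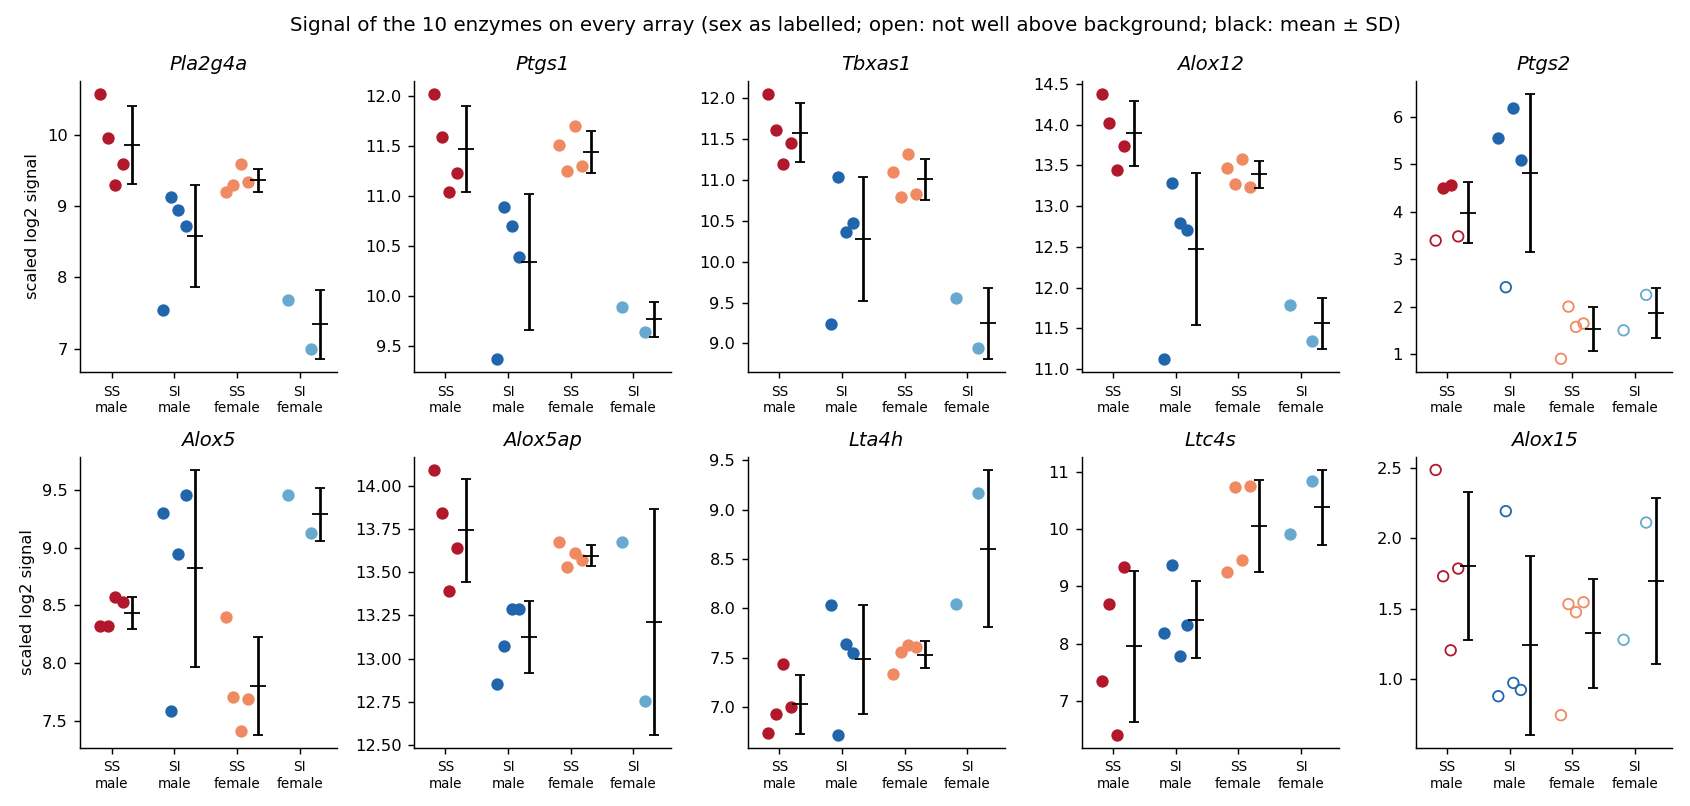
Each panel plots the scaled log2 signal (vertical axis) of 1 enzyme on the 14 arrays, with SS left of SI for mice labelled male and then for mice labelled female. Filled points were well above background, open points were not, and black bars give the mean and SD. In the first 4 panels all SS points of a slide lie above all SI points of that slide, and Alox15 has open points only.

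Pla2g4a, which supplies the arachidonic acid, had scaled log2 signals of 10.56, 9.95, 9.30 and 9.58 in SS mice labelled male, against 9.13, 8.72, 7.55 and 8.94 in SI mice labelled male, each in the order of mice given above. Among mice labelled female the signals were 9.30, 9.34, 9.20 and 9.59 in SS and 7.68 and 7.00 in SI. Every SS mouse was above every SI mouse of its slide on both slides, as for 5.11% of all tested probes. The difference was 1.56 ± 0.28 over all mice (SE, 2.95-fold, limma adjusted p = 0.00478).

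Ptgs1, the constitutive cyclooxygenase, gave 12.02, 11.58, 11.03 and 11.23 in SS mice labelled male, against 10.89, 10.39, 9.37 and 10.704 in SI mice labelled male. Its signals in mice labelled female were 11.24, 11.30, 11.51 and 11.70 in SS and 9.89 and 9.64 in SI. SI mouse 6 was the lowest of the SI mice labelled male for this enzyme and mouse 4 the highest, an order that Pla2g4a, Tbxas1 and Alox12 shared. The difference was 1.34 ± 0.25 (SE, 2.54-fold, adjusted p = 0.00495).

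Tbxas1, which turns the product of cyclooxygenase into thromboxane A2, gave 12.05, 11.62, 11.20 and 11.46 in SS mice labelled male, against 11.04, 10.47, 9.24 and 10.37 in SI mice labelled male. On the other slide it gave 10.79, 10.83, 11.10 and 11.32 in SS mice labelled female and 9.55 and 8.94 in SI. The gap between the lowest SS and the highest SI mouse was narrow among mice labelled male and over a log2 unit among those labelled female. The difference was 1.49 ± 0.26 (SE, 2.8-fold, adjusted p = 0.00475).

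Alox12, which makes 12-hydroxyeicosatetraenoic acid in platelets, gave 14.37, 14.02, 13.45 and 13.74 in SS mice labelled male, against 13.28, 12.71, 11.13 and 12.80 in SI mice labelled male. Mice labelled female had 13.27, 13.24, 13.47 and 13.58 in SS and 11.78 and 11.34 in SI. The difference was 1.58 ± 0.29 (SE, 2.99-fold, adjusted p = 0.00489). The second Alox12 probe, which was dimmer, gave 1.82 ± 0.34 (SE, adjusted p = 0.00501), and on it the groups overlapped by 1 mouse among those labelled male, since SI mouse 4 at 9.67 lay above SS mouse 3 at 9.58.

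Taken slide by slide, the differences of these 4 enzymes had the same sign and a different call. In mice labelled male the differences were 1.26 ± 0.35 for Pla2g4a, 1.13 ± 0.32 for Ptgs1, 1.30 ± 0.34 for Tbxas1 and 1.42 ± 0.38 for Alox12 (SE). None passed the threshold there (adjusted p = 0.0851 for each), and 0% of all tested probes did, although 5700 probes had an unadjusted p under 0.05. In mice labelled female the differences were 2.01 ± 0.43, 1.67 ± 0.39, 1.76 ± 0.42 and 1.83 ± 0.47 in the same order, with adjusted p of 0.0288, 0.0349, 0.0365 and 0.0468. These 4 of 8 calls stand against 3.18% of all tested probes called higher in that comparison. The difference between slides was itself tested and passed for 0 of the 8 enzymes (0.0458% of all tested probes), with adjusted p of 0.583 for Pla2g4a, 0.639 for Ptgs1, 0.694 for Tbxas1 and 0.75 for Alox12. Its 95% confidence intervals were wide, running for Alox12 from -0.89 to 1.71. In mice labelled male all 4 passed without SI mouse 4, at 1.31 for Ptgs1 to 1.68 for Alox12 (adjusted p = 0.0155 and 0.0144), in a fit where 22.1% of all tested probes were called higher and 17.1% lower, and they passed with array weights, where 32.7% and 25.8% were. In mice labelled female the count called higher dropped to 0 when any 1 of the 6 arrays of that slide was left out, to 1 without SS mouse 2, SS mouse 01b or SI mouse 5, to 0 without the filter on dim probes or with the row on the slide as a term, and to 1 in the authors' deposited value table.

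**Figure D2:**
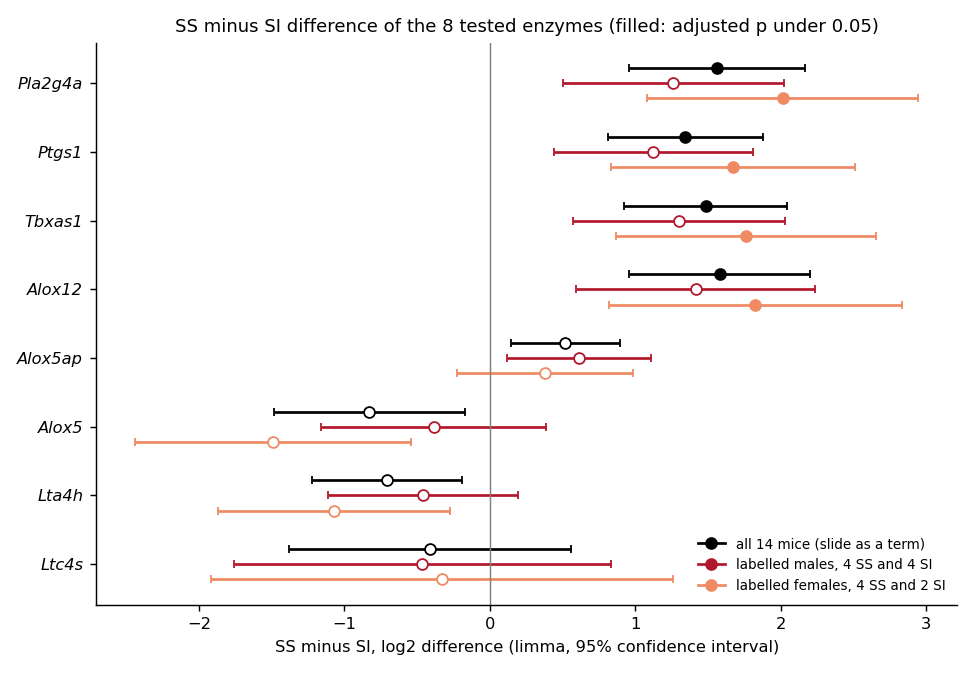
The SS minus SI log2 difference (horizontal axis) of the 8 tested enzymes with its 95% confidence interval from limma is drawn for all mice, for mice labelled male and for mice labelled female. Filled points passed an adjusted p of 0.05. The 4 enzymes at the top lie right of 0 in all 3 comparisons, and Alox5, Lta4h and Ltc4s lie left of 0.

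The 4 enzymes were higher in SS than in SI mice with every array left out in turn, and all 4 passed each time. Over the 14 fits the difference ran from 1.34 to 1.75 for Alox12 and from 1.31 to 1.64 for Tbxas1. It ran from 1.18 to 1.47 for Ptgs1 and from 1.38 to 1.69 for Pla2g4a. In the authors' deposited value table, whose scaling between arrays is unknown, the 4 passed as well but with other sizes, 0.82 for Alox12, 0.86 for Tbxas1, 0.73 for Ptgs1 and 2.62 for Pla2g4a on a log2 scale.

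**Figure D3:**
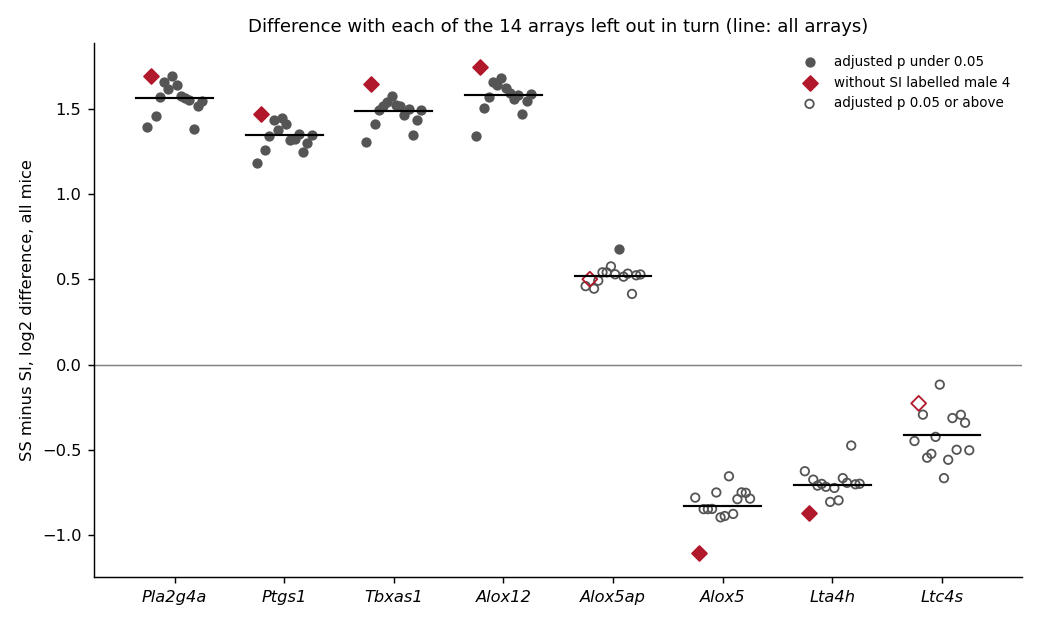
Each point is the SS minus SI log2 difference over all mice (vertical axis) of 1 enzyme with 1 of the 14 arrays left out; filled points passed an adjusted p of 0.05, diamonds mark the fit without SI mouse 4, and the line gives the value with all arrays. Pla2g4a, Ptgs1, Tbxas1 and Alox12 have filled points only, and Alox5 and Lta4h have a filled point only where mouse 4 is left out.

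The stretches just before the transcription starts of the 4 enzymes higher in SS mice, and of Alox5, which did not pass, are printed. They show whether these genes share short binding motifs of blood cell factors. Each holds the 250 bases before the outermost start in RefSeq (build GRCm38.p6, 5′ to 3′), and 8 of the 10 genes had an entry. Both strands were searched for AGATAA, bound by the GATA family, AGGAAG, bound by the ETS family, and TGTGGT, bound by the RUNX family, and, chosen after the sequences had been seen, for GGGCGG, the core of the GC box, and TATAAA, the core of the TATA box. Capitals mark the matches.
Pla2g4a (chr1:149961291-149961540, minus strand): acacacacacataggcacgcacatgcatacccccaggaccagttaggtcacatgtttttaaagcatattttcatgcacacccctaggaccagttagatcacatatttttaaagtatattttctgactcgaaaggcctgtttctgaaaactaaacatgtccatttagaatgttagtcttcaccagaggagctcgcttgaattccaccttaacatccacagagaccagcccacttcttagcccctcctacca
Ptgs1 (chr2:36230176-36230425, plus strand): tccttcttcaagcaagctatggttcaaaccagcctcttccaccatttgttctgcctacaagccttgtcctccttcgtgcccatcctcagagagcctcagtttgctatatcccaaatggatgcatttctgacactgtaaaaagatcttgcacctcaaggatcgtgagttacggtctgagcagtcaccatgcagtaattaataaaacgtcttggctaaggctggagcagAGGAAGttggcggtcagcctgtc
Tbxas1 (chr6:38918736-38918985, plus strand): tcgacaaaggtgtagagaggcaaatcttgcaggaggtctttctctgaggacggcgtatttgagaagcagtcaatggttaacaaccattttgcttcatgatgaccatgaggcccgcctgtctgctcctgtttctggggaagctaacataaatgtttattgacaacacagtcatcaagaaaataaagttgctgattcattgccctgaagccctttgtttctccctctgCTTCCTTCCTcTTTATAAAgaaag
Alox12 (chr11:70255371-70255620, minus strand): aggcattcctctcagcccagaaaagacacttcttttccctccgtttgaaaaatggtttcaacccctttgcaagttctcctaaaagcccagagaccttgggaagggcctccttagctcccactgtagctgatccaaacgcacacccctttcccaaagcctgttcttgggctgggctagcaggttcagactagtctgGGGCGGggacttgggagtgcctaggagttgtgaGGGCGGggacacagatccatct
Alox5 (chr6:116461179-116461428, minus strand): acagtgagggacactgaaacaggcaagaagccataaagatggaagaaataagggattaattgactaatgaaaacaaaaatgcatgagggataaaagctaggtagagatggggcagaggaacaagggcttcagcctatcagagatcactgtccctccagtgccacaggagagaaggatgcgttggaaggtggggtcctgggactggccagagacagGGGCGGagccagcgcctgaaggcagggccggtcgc
The 4 that were higher in SS mice shared no motif of the 5 across all of them. Tbxas1 had ETS matches whose first letters lie 24 and 20 bases before the start, and TATA matches at 13 and 11 bases that overlap on opposite strands. Ptgs1 had an ETS match at 23 bases, Alox12 had GC boxes at 55 and 22 bases, Alox5 had a GC box at 35 bases, and Pla2g4a had no match. Of all 27025 promoters of that length, 29.2% held the ETS motif, 32.96% the GC box, 14.2% the RUNX motif, 12.98% the TATA box and 10.2% the GATA motif. A match is a stretch of letters and not evidence of a site in use, and the start used in platelets may differ from the annotated one.

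Alox5 and Alox5ap, the partners of leukotriene synthesis, did not pass the test over all mice or on either slide. Alox5 gave 8.32, 8.32, 8.57 and 8.53 in SS mice labelled male, against 7.58, 9.46, 9.30 and 8.95 in SI mice labelled male, where mouse 4 alone lay below the SS mice. Mice labelled female had 7.71, 7.68, 8.40 and 7.41 in SS and 9.46 and 9.13 in SI, with every SS mouse below every SI mouse, as for 18.2% of all tested probes. The difference was -0.83 ± 0.31 over all mice (SE, adjusted p = 0.132), -0.39 ± 0.36 in mice labelled male (adjusted p = 0.494) and -1.49 ± 0.44 in mice labelled female (adjusted p = 0.0798). The difference between slides did not pass (adjusted p = 0.434). Without SI mouse 4 the values were -1.10 ± 0.20 over all mice (adjusted p = 0.00265) and -0.80 ± 0.23 in mice labelled male (adjusted p = 0.0238), and the value in mice labelled female, still -1.49, passed as well (adjusted p = 0.0119). With array weights and mouse 4 kept, Alox5 also passed over all mice (-1.05, adjusted p = 0.00182), in mice labelled male (-0.76, adjusted p = 0.0136) and in mice labelled female (-1.58, adjusted p = 0.0146). Many other probes passed in these fits. Without mouse 4, 6.03%, 17.1% and 2.48% of all tested probes were called lower over all, labelled male and labelled female mice. With array weights these shares were 23.5%, 25.8% and 1.69%, against 0.571%, 0% and 0.82% in the main fits.

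Alox5ap, the membrane protein that presents arachidonic acid to Alox5, gave 14.09, 13.84, 13.39 and 13.64 in SS mice labelled male, against 13.07, 13.29, 12.86 and 13.29 in SI mice labelled male. Every SS mouse was above every SI mouse there, as for 8.4% of all tested probes. The mice labelled female had 13.53, 13.57, 13.67 and 13.61 in SS and 13.68 and 12.75 in SI, and the groups overlapped. The difference was 0.52 ± 0.17 (SE, 1.43-fold, 95% confidence interval 0.15 to 0.89, adjusted p = 0.0918). It passed without SI mouse 27 (0.68, adjusted p = 0.0238), where 6.06% of all tested probes were called higher. It also passed with array weights (adjusted p = 0.011), where 20.9% were called higher. When only probes detected on all 14 arrays were tested, it passed as well (adjusted p = 0.0496), where 11.3% were called higher.

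Lta4h, which makes leukotriene B4, gave 6.74, 6.93, 7.44 and 7.00 in SS mice labelled male, against 6.73, 7.55, 8.04 and 7.64 in SI mice labelled male, and again only mouse 4 overlapped with the SS mice. Its signals in mice labelled female were 7.56, 7.61, 7.34 and 7.63 in SS and 8.04 and 9.17 in SI, with every SS mouse below every SI mouse, as for 18.2% of all tested probes. The difference was -0.70 ± 0.24 over all mice (SE, adjusted p = 0.100), and without mouse 4 it was -0.87 ± 0.20 (adjusted p = 0.0113). In the fit without that array Lta4h also passed in mice labelled male (-0.71, adjusted p = 0.0492) and labelled female (-1.07, adjusted p = 0.0482), and with array weights it passed over all mice (-0.68, adjusted p = 0.00429). Without mouse 4, 6.03%, 17.1% and 2.48% of all tested probes were called lower over all, labelled male and labelled female mice. With array weights 23.5% were called lower over all mice. Ltc4s, which starts the cysteinyl leukotriene branch, ranged from 6.41 to 9.34 in SS mice labelled male, against 7.78 to 9.36 in SI mice labelled male, and from 9.25 to 10.76 in SS mice labelled female, against 9.92 and 10.84 in SI. Its groups overlapped on both slides, and its difference of -0.41 ± 0.45 (SE, 95% confidence interval -1.38 to 0.56, adjusted p = 0.630) left room for a change either way.

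Ptgs2, the inducible cyclooxygenase, was well above background on 2 of 4 arrays of SS mice labelled male, against 3 of 4 of SI mice labelled male, and on 0 of 4 SS and 0 of 2 SI arrays of mice labelled female. The detected signals were 4.49 and 4.56 in SS mice 2 and 3, against 5.09, 5.55 and 6.18 in SI mice 5, 6 and 7. The detected SI signals lay above the detected SS ones, but mouse 4 was not well above background, nor were SS mice 1 and 01b, and no difference is given for Ptgs2 on its own. Alox15, the 12/15-lipoxygenase of eosinophils and macrophages, was well above background on 0 of 14 arrays and has no fold change here. Of the markers of eosinophils, basophils and mast cells, 5 of 10 were likewise never well above background and 3 were tested, of which 0 passed.

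Setting the platelet enzymes Alox12, Tbxas1 and Ptgs1 against the leukocyte enzymes Alox5, Alox5ap and Ptgs2, the mean difference was 1.47 for the platelet enzymes and -0.31 for the leukocyte enzymes over all mice, a gap of 1.78 log2 units, given without a test because the genes were chosen with earlier results known. The gap was 1.48 in mice labelled male and 2.24 in mice labelled female. Because Ptgs2 was mostly undetected, the gap was also taken without it, which gave 1.62 over all mice, 1.17 in mice labelled male and 2.31 in mice labelled female. The leukocyte mean difference without Ptgs2 was -0.15 over all mice, 0.11 in mice labelled male and -0.55 in mice labelled female. It averages Alox5 and Alox5ap, whose differences had opposite signs in each of these comparisons. Per array and without Ptgs2, the platelet minus leukocyte mean ran from 0.91 to 1.61 in SS mice labelled male, against -1.17 to 1.41 in SI mice labelled male, and from 0.99 to 1.69 in SS mice labelled female, against -1.16 and -0.97 in SI. The value has no meaning on its own, since it mixes probes, but its order across arrays put SI mouse 4 among the SS mice and the other 5 SI mice below them all. Leaving out 1 array at a time, the gap with Ptgs2 ran from 1.54 to 2.18 over all mice, from 1.00 to 2.13 in mice labelled male and from 2.11 to 2.37 in mice labelled female, the high end in mice labelled male being the fit without mouse 4.

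Platelet markers moved with the 4 enzymes that were higher in SS mice. Of 16 platelet markers, such as Pf4, Itga2b and Gp9, 15 were called higher over all mice and 0 lower. Of all tested probes, 7.4% were called higher and 0.571% lower. The median difference of the markers was 1.58, against a median of -0.04 over all tested probes. Selp did not pass (0.74, limma adjusted p = 0.118). With 1 array left out, 15 to 16 markers were called higher over all mice. In mice labelled male 0 of 16 were called, as were 0% of all tested probes. Without SI mouse 4, 16 were called higher there, where 22.1% of all tested probes were. In mice labelled female 12 were called higher, where 3.18% of all tested probes were. That count was 0 without SS mouse 20, 22 or 23, without the filter on dim probes and with the row on the slide as a term. The summed level of the platelet markers, in log2, was 18.24 to 19.06 in SS mice labelled male, against 16.22 to 18.23 in SI. Among mice labelled female it was 18.35 to 18.65 in SS, against 16.54 and 16.89 in SI. The difference of the 4 enzymes, 1.34 to 1.58, lay near that median; the part of the platelet markers in it was not tested. After each group's mean had been taken off, the 4 enzymes still followed the mean platelet marker signal over the 14 arrays, with Pearson's r of 0.99 for Alox12, 0.98 for Tbxas1, 0.96 for Ptgs1 and 0.94 for Pla2g4a and Spearman's rho of 0.95 to 0.96. The exact permutation p (within groups, two-sided, 27648 arrangements, 24 relations) ran from 3.62e-05, the smallest they can give, to 0.000289 for r, with Benjamini-Hochberg adjusted values of 0.000868 to 0.00174. Without the 2 arrays with the most extreme marker signal, SI mice 6 and 4, r was 0.95 to 0.97 for these 4. Enzyme and marker signals are scaled by the same value on each array. The share of all tested probes that followed the platelet markers as closely is not given.

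Of the other enzymes, none passed the adjusted threshold for the platelet markers. Within groups, r was 0.54 for Alox5ap (rho 0.74, adjusted p = 0.0764 and 0.0505), -0.77 for Lta4h (rho -0.63, adjusted p = 0.0592 and 0.154), -0.60 for Alox5 (rho -0.36, adjusted p = 0.491 and 0.433) and 0.16 for Ltc4s, by the exact permutation test, and without SI mice 6 and 4 it was 0.80 for Alox5ap, -0.58 for Lta4h and -0.10 for Alox5. Alox5 followed the monocyte markers, such as Csf1r and Ccr2, with r of 0.66 and rho of 0.77 (exact permutation p = 0.00456 and 0.00571, adjusted 0.0219 and 0.0274), and r was 0.73 without the 2 most extreme arrays. Alox5 had r of 0.60 with the neutrophil markers (rho 0.46, exact permutation adjusted p = 0.220 and 0.322). Lta4h had its highest r with the neutrophil markers, 0.80 (rho 0.75, exact permutation adjusted p = 0.129 and 0.130), and this r was 0.54 without the 2 most extreme arrays, SI mice 4 and 27.

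**Figure D4:**
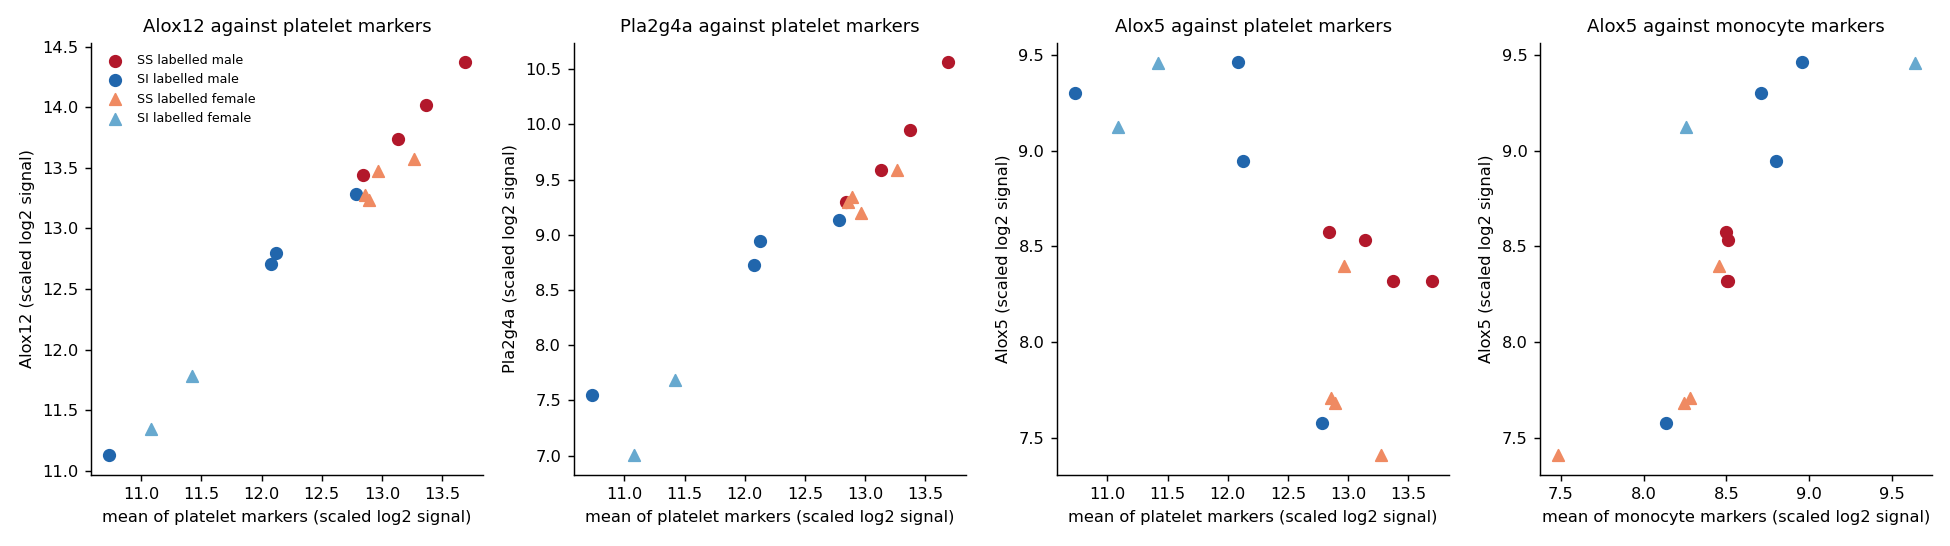
The scaled log2 signal of Alox12, Pla2g4a and Alox5 (vertical axes) is plotted per array against the mean scaled log2 signal of the platelet markers, and Alox5 also against that of the monocyte markers (horizontal axes); circles are mice labelled male and triangles mice labelled female. Alox12 and Pla2g4a lie close to a line across all groups, with SI mouse 6 lowest and SS mouse 1 highest on the marker axis, while Alox5 spreads.

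The neutrophil granule genes Ngp, Ltf, Camp and Lcn2 differed between the slides in their SS minus SI difference (labelled female minus labelled male -6.74, -6.35, -6.14 and -4.59, limma adjusted p of 0.0151, 0.0355, 0.0171 and 0.0151). Of all tested probes, 0.0458% passed that test of the difference between slides. The summed neutrophil marker level was 17.39 to 17.56 in SS mice labelled male, against 16.78 to 17.40 in SI. Among mice labelled female it was 16.66 to 16.98 in SS, against 18.32 and 18.92 in SI. There 8 of 13 tested neutrophil markers were called lower, where 0.82% of all tested probes were. This count was 5 without SS mouse 23 and 11 without SI mouse 4, where 0.121% and 2.48% of all tested probes were called lower. The summed monocyte marker level was 12.91 to 13.26 in SS mice labelled male, against 13.22 to 13.61 in SI, and 12.54 to 13.35 in SS mice labelled female, against 13.42 and 14.58 in SI, and 0 of 9 tested monocyte markers passed. SI mouse 4, whose Alox5 and Lta4h lay low, had the lowest neutrophil and monocyte marker sums of the 4 SI mice labelled male. Its platelet marker sum was the highest of these 4, and its red cell marker sum (21.05) was the highest of all arrays. On its slide it had the lowest share of spots well above background (38.8%, against 43.2 to 47.7%). The log2 signal level used for its scaling was the lowest there as well (8.53, against 9.03 to 10.40). The part of these traits in its Alox5 and Lta4h signals was not tested. Medians over all mice were -0.83 for neutrophil, -0.39 for monocyte, -0.59 for T cell, 0.01 for B cell, -0.70 for NK cell and -0.81 for red cell markers, and 0 genes of these lists passed over all mice. Without mouse 4, 5 of 13 neutrophil, 1 of 9 monocyte and 1 of 9 NK cell markers were called lower. In that fit 6.03% of all tested probes were called lower. The part of these cells in the lower Alox5 and Lta4h signals of SS mice labelled female was not tested.

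The genes whose slide-centred signal was most like that of each enzyme, among 11473 tested genes and over 14 arrays, are given as a description. For Alox12 they were Pttg1ip (Pearson's r 0.998), Clic4 (0.997) and Nrgn (0.997), for Tbxas1 Nipal3 (0.997) and Sytl4 (0.995), and for Ptgs1 Dap (0.998), Gp6 (0.997) and Cyp2b10 (0.997). Gp6, the platelet collagen receptor, and Nrgn are on the platelet marker list. For Alox5 they were Svil (0.984), Hmgn2 (0.980) and the formyl peptide receptor Fpr1 (0.979). For Alox5ap they were the lysosomal membrane protein gene Lamp1 (0.977), Snx10 (0.965) and Map1lc3b (0.964). For Ptgs2 they were Zc3h12a (0.960), the chemokine Ccl4 (0.949) and Erp44 (0.933). Ptgs2 was well above background on only 5 of the 14 arrays, so most of the signals behind its values lay near background. Among the enzymes themselves Pla2g4a, Ptgs1, Tbxas1 and Alox12 correlated with each other at 0.98 to 0.99, Alox5ap with these 4 at 0.79 to 0.82, Lta4h at -0.89 to -0.85 and Alox5 at -0.76 to -0.74. These values hold the SS against SI difference as well as the spread within groups.

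Of the 57 further genes of eicosanoid release, synthesis, breakdown and reception, all on the array, 38 were tested and 14 were never well above background. Over all mice 4 of the 38 (10.5%) were called higher, near the 7.4% of all tested probes, and 0 lower, and the median difference was -0.19. With array weights 6 were called higher and 13 lower, where 20.9% and 23.5% of all tested probes were. Without SI mouse 4 the counts were 5 higher (13.2%, against 10% of all tested probes in that fit) and 7 lower (18.4%, against 6.03%), the added calls being Ptges (0.65, adjusted p = 0.0121), which makes prostaglandin E2, and, all lower, Fpr2, Mgst2, Pla2g7, Cyp4f18, Cotl1, Lpcat2 and Plaa, from -1.23 (Fpr2) to -0.50 (Plaa). Among phospholipases A2, the secreted-type Pla2g10 was higher in SS mice by 1.504 ± 0.276 (SE, limma adjusted p = 0.0049). Pla2g12a was higher by 1.49 ± 0.25 (adjusted p = 0.0047). The other 6 tested genes of that list, which includes the activating protein gene Plaa, ran from -0.75 for Pla2g7 to 0.45 for Pla2g4b. Among receptors, the prostacyclin receptor Ptgir, which restrains platelet activation, was higher in SS mice by 0.95 ± 0.20 (limma adjusted p = 0.0085). The cysteinyl leukotriene receptor Cysltr2 was higher by 1.15 ± 0.33 (adjusted p = 0.0471). Pla2g10, Pla2g12a and Ptgir passed in all 14 fits with 1 array left out, and Cysltr2 in 2 of 14 (0.91 to 1.38). The thromboxane receptor Tbxa2r, the target of the product of Tbxas1, gave -0.33 ± 0.35 (adjusted p = 0.618).

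The genes of leukotriene metabolism and the terminal prostaglandin synthases showed no call over all mice with every array in. Of 8 listed genes of leukotriene and lipoxin metabolism 5 were tested, with differences of -0.93 (Mgst2) to -0.09 (Dpep2). Of 6 terminal prostaglandin synthases only Ptges, Ptges2 and Ptges3 were tested, and Ptgis, Ptgds and Hpgds, which make prostacyclin and prostaglandin D2, were never well above background. In mice labelled female, Pla2g10 (2.09) and Pla2g12a (1.87) were called higher and 3 genes lower, namely the leukotriene B4 receptor Ltb4r1 (-1.44 ± 0.26, adjusted p = 0.0207), the formyl peptide receptor Fpr2, which also binds lipoxin A4 (-2.15 ± 0.43, adjusted p = 0.0239), and the microsomal glutathione transferase Mgst2 (-2.01 ± 0.48, adjusted p = 0.0387), where 0.82% of all tested probes were called lower. In mice labelled male these 3 gave 0.09, -0.20 and -0.21, and the difference between slides did not pass for any of them (adjusted p = 0.147, 0.250 and 0.316). With 1 array left out, Ltb4r1 passed in 10, Fpr2 in 9 and Mgst2 in 6 of 14 fits in mice labelled female. The list's 3 lower calls there became 0 in the authors' deposited value table and 0 without the filter on dim probes, and 1 with the percentile taken over all probes. The neutrophil marker sums given above moved with these 3 genes on that slide, and their part was not tested.

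**Figure D5:**
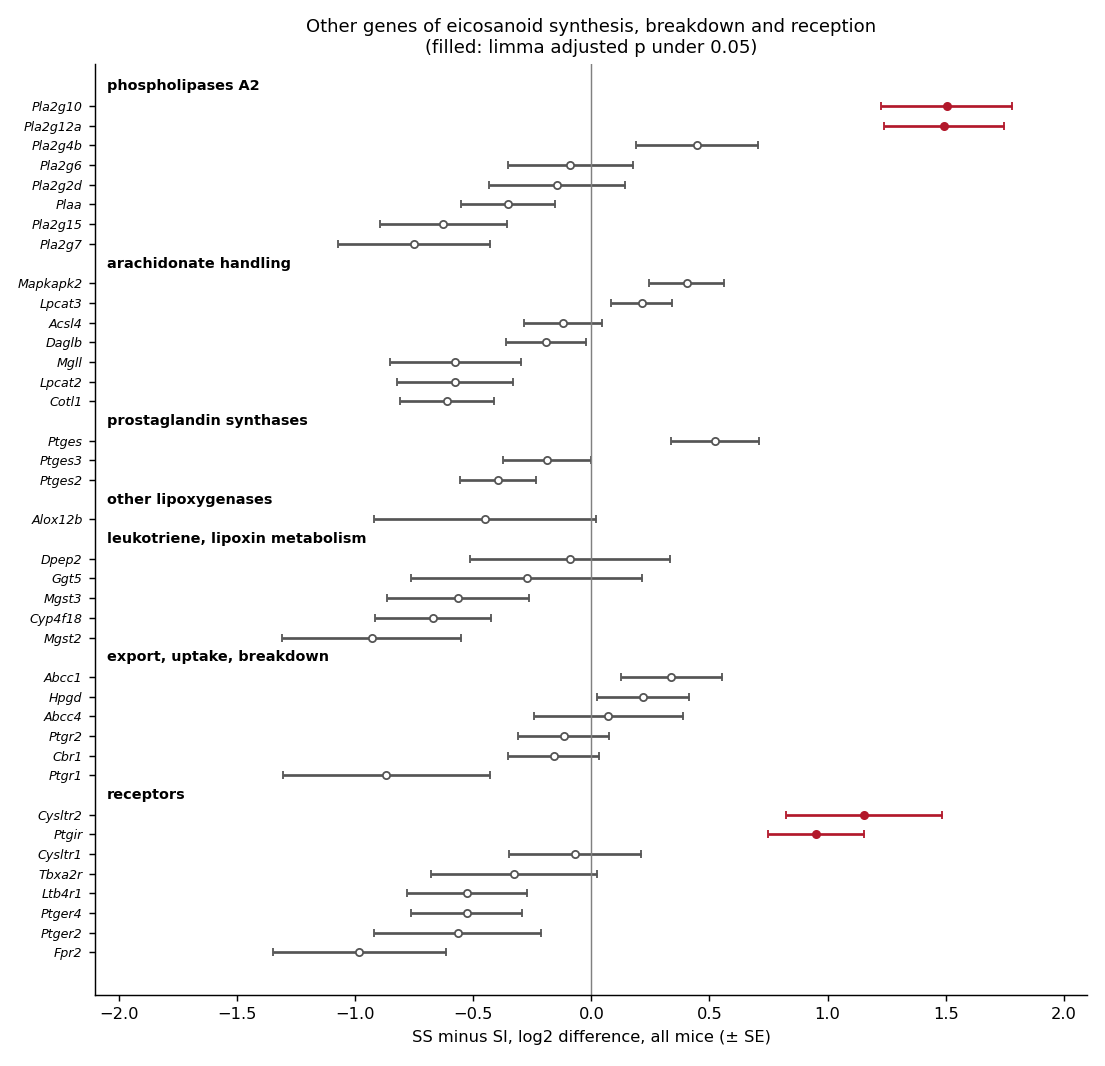
The SS minus SI log2 difference over all mice (horizontal axis, bars give the SE) is drawn for the 38 tested genes of the wider pathway, grouped by role; filled points passed an adjusted p of 0.05. Pla2g10, Pla2g12a, Ptgir and Cysltr2 are the filled points, all right of 0.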

How the data were processed

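Blood cell RNA of 14 mice was hybridised to 1-colour Agilent arrays (Cy3). The deposited intensity values are background-subtracted and spatially detrended signals from Agilent's Feature Extraction software, version 10.7.3.1 per the file headers; the submitters' processing notes name version 9.1. Detection and outlier flags are also as deposited. The authors' deposited value table holds log2 values whose scaling and centring between arrays are unknown (column medians 7.21 to 7.74); it was used as an alternative. From the intensities, control spots were dropped, and outlier spots were dropped where the probe had another spot without a flag. Where every spot of a probe was flagged, as for a flagged probe with 1 spot, the values were kept. Spots of a probe were then averaged, and log2 values were scaled to the 75th percentile over the 14504 probes well above background on all arrays. Probes well above background on at least 6 arrays were tested with limma 3.58.1 in R 4.3.3, two-sided, with Benjamini-Hochberg adjustment over all 24013 of them, threshold 0.05. All mice were fitted with slide as a term; slides were compared in a fit with 4 groups. The scripts were checked on simulated data. Probes were named through RefSeq accessions, and 26425 of 31063 such probes matched; a gene is represented by its brightest tested probe. The text names all 10 enzymes, the called genes of the eicosanoid list and the 3 most correlated genes of 6 enzymes, of which 1 is not reported here; genes named beyond these were chosen after their values were seen. The members and lists were chosen with earlier results of these data known. Each sample is labelled as 1 mouse, so p-values are taken to measure the spread between mice, and the number of arrays limits the precision. The labels do not state whether SS mouse 01b is an animal other than SS mouse 1, and they were counted separately.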

Additional observations from a re-analysis of the deposited data

Results flagged for a closer look

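The test of the difference between slides passed for 4 neutrophil granule genes of the marker lists, and for none of the 8 tested enzymes. It passed for 0.0458% of all tested probes. The SS minus SI difference was -4.85 in mice labelled female and 1.89 in mice labelled male for Ngp, -4.87 and 1.48 for Ltf, -4.63 and 1.51 for Camp, and -4.10 and 0.49 for Lcn2. Labelled female minus labelled male, this came to -6.74, -6.35, -6.14 and -4.59 (limma adjusted p = 0.0151, 0.0355, 0.0171 and 0.0151). Slide and sex label cannot be told apart.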

How the results depend on the processing

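The SS minus SI differences of Pla2g4a, Ptgs1, Tbxas1 and Alox12 over all mice passed the threshold in the 14 fits without 1 array each. They also passed under the 11 other settings tried, with limma adjusted p of at most 0.0303. Leaving out 1 array, the number of enzymes called over all mice was 4 to 5 higher and 0 to 2 lower, in mice labelled male 0 to 4 higher and 0 to 2 lower, and in mice labelled female 0 to 4 higher and 0 to 2 lower; the platelet minus leukocyte gap was 1.54 to 2.18, 1.00 to 2.13 and 2.11 to 2.37. The 2 called lower were Alox5 and Lta4h, without SI mouse 4. The 4 calls in mice labelled female were lost (0 called) with no filter on dim probes, which tests more probes, and with the row on the slide as a term. Of them, 2 were called after normexp correction and 1 in the deposited table, and 1 without SS mouse 2, SI mouse 5 or SS mouse 01b, which lie on the other slide and enter through the shared spread. Alox12 was the least stable of the 4 there. It passed in 2 of the 14 fits with 1 array left out and under 4 of 10 other settings, against 7 of 10 for each of the others. Array weights gave 2 lower over all mice, with Alox5ap called higher beside the 4 enzymes. They gave 5 higher and 2 lower in mice labelled male, and 2 lower in mice labelled female. With them 5010 probes were called higher and 5639 lower over all mice, against 1778 and 137 otherwise, and the cause was not tested. Signs turned for Alox5 in mice labelled male in the deposited table (0.47), for Ltc4s with array weights (0.17, 0.46 and 0.16 over all, labelled male and labelled female mice), without SS mouse 3 (labelled male, where leaving out 1 array gave -0.93 to 0.048) and without SI mouse 28 (labelled female, -0.79 to 0.13), and for Alox5ap without SI mouse 28 (labelled female, -0.080 to 0.84). None of these turned values passed. All probes called over all mice numbered 1092 higher and 33 lower without the filter, and 1101 and 144 after normexp. No probe passed in mice labelled male, against 164 higher and 10 lower in the deposited table, and 5303 and 4109 without mouse 4. In mice labelled female 79.5% of the called probes were higher, and 68.8% after normexp, which moved the median of all probes there to -0.26 from -0.11 and, in mice labelled male, to 0.20 from 0.09. No paired analysis was possible because no mouse number occurs in more than 1 group. The 27 enzyme groups of 4 mice held no outlying value by Dixon's test. The recounts of the gene lists with 1 array left out were added after seeing the data, as was the gap without Ptgs2. Ptgs2 and Alox15 are limited by signal over background.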
